A study of Arabidopsis thaliana with 40 samples.

Results

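The core cell cycle regulators of the *Arabidopsis* root were followed in profiles labelled as quiescent center (QC) cells. The set held 56 loci of the 32678 *Arabidopsis* loci in the expression table and was chosen by gene family: cyclin-dependent kinases (CDKs), A-, B- and D-type cyclins, KRP and SIM/SMR1 inhibitors, RBR1 with the E2F and DP factors, WEE1, CKS and CCS52 genes. The families were set by gene annotation, with earlier results of these data known. All 56 loci had a row in the table.

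The 40 samples of the series carried a single label, QC cells of WOX5:GFP seedlings in the Col-0 background, harvested at 5 days after stratification (DAS). WOX5:GFP reports the promoter of *WOX5*, a homeobox gene active in the QC. Per the labels, cells were freed by cell wall digestion, sorted on GFP and amplified by CEL-Seq, which tags the 3′ ends of poly(A) RNA with a barcode for each cell before linear amplification. There was no mutant, treatment or second tissue, so the comparisons below are between genes and between families, and 39 of the 40 samples had a profile.

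The deposited log2 values were turned back into whole counts. Total counts over all rows ran from 60463 in QC cell 4 to 7820633 in QC cell 22, with QC cell 13 at the median (2202024). When the profiles were ordered by depth, 0 of the 32771 rows had a lower count in a deeper profile than in the profile before it, over 38 steps, so every profile held all counts of the shallower ones. This goes against the label of separate single cells. The profiles were therefore treated as 1 sample at 39 depths, no test was run, and the levels given are those of the deepest profile. They are in CPM, counts divided by the total count at *Arabidopsis* loci and scaled to 1e+06, where 1 count was worth 0.135 CPM. Intervals are exact 95% Clopper-Pearson intervals and cover counting error only. Many genes were listed at 0, and since some abundant genes passed from 0 to over 100 counts within 1 step, a listed 0 set no upper limit on expression.

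The identity of the material was checked on 11 marker genes, of which 8 were above 0 in the deepest profile, where 51.3% of all loci were. The QC markers *WOX5* (79 counts, 10.6 CPM) and *AGL42* (22 counts, 2.96 CPM) were both present, as was *SCR* of the QC and endodermis (28.5 CPM). The stele markers *WOL* (33.5 CPM) and *SHR* (4.17 CPM), the phloem marker *APL* (20.5 CPM), the xylem marker *VND7* (1.21 CPM) and the epidermal marker *GL2* (8.48 CPM) were also above 0. *GL2* shares 198 bases with AT1G79850 on the opposite strand (84 counts) and 155 with AT1G09927 on the same strand. The endodermal *CASP1*, the root hair gene *COBL9* and the root cap gene *SMB* were listed at 0, as was the GFP row itself. The part of other cell types in the levels below was not tested, and fewer dividing cells and less RNA per cell cannot be told apart here.

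Plant cells enter and leave the cell cycle through CDKs that are switched on by cyclins. D-type cyclins pair with CDKA and drive phosphorylation of the retinoblastoma-related protein RBR1, which frees E2F-DP factors to start S phase, while A- and B-type cyclins and the plant-specific CDKBs serve S phase and mitosis. KRP and SIM/SMR proteins inhibit the kinases, CCS52 proteins direct the anaphase-promoting complex (APC/C) to mitotic cyclins, and WEE1 holds the kinase back after DNA damage. The QC divides seldom, and RBR1, CCS52A2 and D-type cyclins are known to bear on how often it does.

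Promoter sequence was examined first, because the B-type cyclins stayed at or near 0 together and many genes of mitosis carry a mitosis-specific activator (MSA) element, the binding site of MYB3R factors. The core was searched as CCAACGG or CTAACGG on both strands in the 300 bases before each annotated gene start, with gene starts from RefSeq (TAIR10.1). It occurred in 7 of the 9 B-type cyclins (77.8%) and in 8 of all 56 regulators (14.3%), against 789 of 26711 nuclear protein-coding loci (2.95%). *DPA* was the only regulator outside the B-type cyclins with a match, and CYCB1;4 and CYCB3;1 were the B-type cyclins without one. Of the regulators listed at 0, 5 of 17 (29.4%) held the core, against 3 of the 39 above 0 (7.69%). All of these 8 but *DPA* were B-type cyclins, so the difference restates family membership. A link between the core and the level of a gene was not tested. The 180 bases before the start are printed for a pair above 0 and a pair listed at 0, with core matches in capitals, from RefSeq TAIR10.1 and all on the minus strand (chr4:17624309-17624488, chr1:7137829-7138008, chr5:1861704-1861883 and chr3:3627274-3627453 in the order shown).
CYCB1;1: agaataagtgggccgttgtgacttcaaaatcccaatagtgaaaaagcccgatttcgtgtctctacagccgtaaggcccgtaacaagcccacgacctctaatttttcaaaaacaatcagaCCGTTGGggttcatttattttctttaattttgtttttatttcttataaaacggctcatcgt
CYCB2;3: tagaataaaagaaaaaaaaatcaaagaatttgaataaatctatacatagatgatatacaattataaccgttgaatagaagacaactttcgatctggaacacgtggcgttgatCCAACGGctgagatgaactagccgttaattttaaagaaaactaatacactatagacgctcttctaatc
CYCB1;2: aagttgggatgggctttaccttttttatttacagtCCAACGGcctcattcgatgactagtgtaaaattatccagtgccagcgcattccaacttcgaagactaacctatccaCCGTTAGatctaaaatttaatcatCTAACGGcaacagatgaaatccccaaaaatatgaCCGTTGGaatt
CYCB1;3: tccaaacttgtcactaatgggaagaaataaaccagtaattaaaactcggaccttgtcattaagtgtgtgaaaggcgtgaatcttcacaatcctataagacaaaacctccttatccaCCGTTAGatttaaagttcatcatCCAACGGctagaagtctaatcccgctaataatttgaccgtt
The first sequence had 1 match beginning 61 bases before the start and the second had 1 at 68 bases. The third, from a gene listed at 0, had 4 matches at 145, 69, 45 and 11 bases, and the fourth, also listed at 0, had 2 at 64 and 41 bases. The core was thus found both before B-type cyclins above 0 and before ones listed at 0.

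The E2F site was searched as TTTCCCGC, TTTGGCGC, TTTCGCGC or TTTGCCGC on both strands of the same windows. It was found in 2 of 56 regulators (3.57%), against 422 of 26711 loci (1.58%). One of these was *RBR1*, itself the partner of E2F, whose 180 bases before the start (chr3:3919360-3919539, minus strand, TAIR10.1) are given with the site in capitals.
RBR1: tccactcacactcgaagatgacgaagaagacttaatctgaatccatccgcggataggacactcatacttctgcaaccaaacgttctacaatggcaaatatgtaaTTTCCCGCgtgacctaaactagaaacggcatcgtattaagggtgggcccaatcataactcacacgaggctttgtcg
The site began 76 bases before the start of *RBR1*. The other match lay 104 bases before CYCD3;3, a D-type cyclin. A match describes letters in a window and was not tested as a binding site.

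In the deepest profile, 39 of the 56 regulators were above 0 (69.6%), against 51.3% of all loci. At least 10 counts were reached by 32 of 56 regulators, against 47.3% of loci. The median regulator had 15 counts (2.02 CPM), against 5 counts (0.673 CPM) for the median locus. The regulators together held 5316 counts, or 715 CPM. Detection depended on depth: at median depth 30 of 56 were above 0 (53.6%), against 46.1% of loci, and in the shallowest profile 4 of 56 (7.14%), against 15.3%. The regulators were thus above 0 less often than the average locus in the shallowest profile and more often in the deepest.

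The families differed widely. Summed levels were highest in the KRP inhibitors (266 CPM, interval 255 to 278) and the D-type cyclins (226 CPM, 216 to 237), followed by SIM and SMR1 (70.8 CPM, 64.9 to 77.1) and by RBR1 with E2F and DP (58.7 CPM, 53.3 to 64.4). The D-type sum rested on 1 gene, CYCD4;1, which held 86.2% of its counts. The median D-type cyclin had 0.471 CPM, against 23.5 CPM for the median KRP. CDKA and CDKB summed to 28.8 CPM (25.1 to 32.9), the CKS genes to 26.1 CPM (22.6 to 30.0) and the CDK-activating kinases CDKD and CDKF to 21.8 CPM (18.6 to 25.4). The A-type cyclins reached 9.28 CPM (7.22 to 11.8), the B-type cyclins 4.04 CPM (2.72 to 5.76), CCS52 2.96 CPM (1.86 to 4.48) and WEE1 0.269 CPM. Every KRP, SIM/SMR1, RBR1, E2F, DP, CKS, CDKD and CDKF gene was above 0, whereas the 17 genes at 0 were cyclins, a CDKB kinase and CCS52B. Of all loci, 51.3% were above 0. The families held only 1 to 10 genes each, and a listed 0 set no upper limit on expression.

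**Figure D1:**
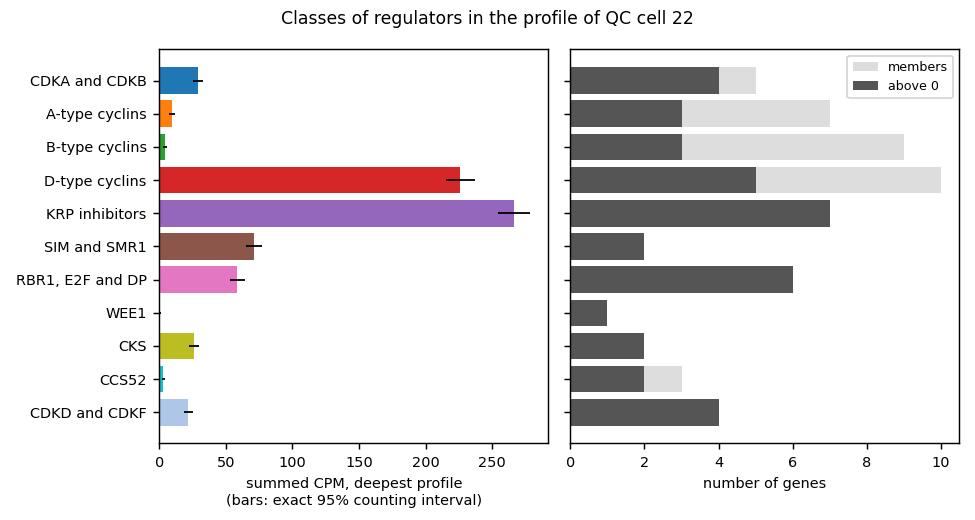
Summed CPM of each family in the deepest profile (left, linear axis, bars on the estimates are exact 95% counting intervals) and the number of genes in the family with the number above 0 (right). The KRP inhibitors (266 CPM, 7 of 7 genes above 0) and D-type cyclins (226 CPM, 5 of 10) stand highest, while the B-type cyclins sum to 4.04 CPM with 3 of 9 above 0. CYCD4;1 alone holds 86.2% of the D-type counts. Of all loci, 51.3% were above 0.

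Among the kinases, CDKA;1 (AT3G48750), the PSTAIRE kinase that serves both the entry into S phase and mitosis, had 0 counts in the shallowest profile, 53 at median depth and 173 in the deepest (23.3 CPM, 19.9 to 27.0). It was above 0 in 38 of 39 profiles. Of the CDKB kinases, whose transcripts peak between S phase and mitosis, those above 0 were far lower. CDKB1;1 (AT3G54180) had 32 counts (4.31 CPM, 2.95 to 6.08), CDKB2;2 (AT1G20930) had 5 (0.673 CPM), CDKB2;1 (AT1G76540) had 4 (0.538 CPM) and CDKB1;2 (AT2G38620) was listed at 0. The single CDKA gene thus had 4.22 times the counts of the CDKB genes together (173 against 41, interval 2.99 to 6.09). CDKB1;2 entered this sum as 0. Since a listed 0 set no upper limit on expression, neither the ratio nor its interval covers that gene. The 3′ end of CDKB1;1 shares 71 bases with AT3G54190 on the opposite strand, which had 215 counts, and the strand setting of the authors' counting is not given in the sources used here.

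Of the 7 A-type cyclins, which act from S phase to mitosis, 3 were above 0 (42.9%, against 51.3% of all loci). CYCA2;3 (AT1G15570), known to restrain endoreduplication, had 0 counts in the shallowest profile, 7 at median depth and 35 in the deepest (4.71 CPM, 3.28 to 6.55). CYCA2;4 (AT1G80370) and CYCA3;2 (AT1G47210) had 17 counts each (2.29 CPM, 1.33 to 3.66) and were above 0 in the same number of profiles (26). CYCA1;1 (AT1G44110), CYCA2;1 (AT5G25380), CYCA2;2 (AT5G11300) and CYCA3;1 (AT5G43080) were listed at 0 in the deepest profile, and so at every depth.

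The B-type cyclins, which drive mitosis, were among the lowest families, with a median member at 0 CPM. CYCB1;1 (AT4G37490), the usual reporter of cells between G2 and mitosis, had 0 counts in the shallowest profile, 5 at median depth and 15 in the deepest (2.02 CPM, 1.13 to 3.33), and was above 0 in 27 profiles. CYCB2;3 (AT1G20610) had 9 counts (1.21 CPM, 0.554 to 2.30) and CYCB3;1 (AT1G16330) had 6 (0.807 CPM, 0.296 to 1.76). The other 6 were listed at 0 in the deepest profile, and so at every depth: CYCB1;2 (AT5G06150), CYCB1;3 (AT3G11520), CYCB1;4 (AT2G26760), CYCB2;1 (AT2G17620), CYCB2;2 (AT4G35620) and CYCB2;4 (AT1G76310). The 3 of 9 genes above 0 (33.3%, against 51.3% of all loci) summed to 30 counts and their intervals overlapped.

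Of the 10 D-type cyclins, which link growth and hormone signals to the entry into the cycle, 5 were above 0, a share close to the 51.3% of all loci, and 1 gene held most of the counts. CYCD4;1 (AT5G65420), a cyclin known from lateral root primordia and the root apex, had 0 counts in the shallowest profile, 0 at median depth and 1449 in the deepest (195 CPM, 185 to 205) and ranked 821 among all loci. It made up 86.2% of the family's counts. CYCD2;1 (AT2G22490), a sugar-responsive cyclin, had 117 counts (15.7 CPM, 13.0 to 18.9). CYCD3;2 (AT5G67260), of the cytokinin-responsive CYCD3 group, had 97 (13.1 CPM, 10.6 to 15.9), while its relative CYCD3;3 (AT3G50070) had 11 (1.48 CPM, 0.739 to 2.65) and CYCD5;1 (AT4G37630) had 7 (0.942 CPM, 0.379 to 1.94). CYCD1;1 (AT1G70210), CYCD3;1 (AT4G34160), CYCD4;2 (AT5G10440), CYCD6;1 (AT4G03270), known from the formative division of the cortex and endodermis initial next to the QC, and CYCD7;1 (AT5G02110), known from the stomatal lineage, were listed at 0.

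The ratio of D-type to B-type cyclin counts was 56.0 (1681 against 30, interval 39.1 to 83.3), and that of D-type to A-type cyclin counts was 24.4 (1681 against 69, 19.1 to 31.5). Both rested largely on the leading D-type gene. Without it the ratios were 7.73 and 3.36, and at median depth, where that gene was listed at 0, they were 9.43 and 4.71. The direction was the same in each of these settings. In the deepest profile 3 of 9 B-type, 3 of 7 A-type and 5 of 10 D-type cyclins were above 0, and the others entered the sums as 0. Since a listed 0 set no upper limit on expression, neither the ratios nor their intervals cover those genes.

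All 7 KRP genes, inhibitors that bind CDKA and D-type cyclins, were above 0, against 51.3% of all loci. Their median was 23.5 CPM. KRP3 (AT5G48820) led with 0 counts in the shallowest profile, 286 at median depth and 1065 in the deepest (143 CPM, 135 to 152), rank 1208 among all loci and 53.8% of the family. KRP4 (AT2G32710), known from cell size control in the shoot meristem, had 339 counts (45.6 CPM, 40.9 to 50.7). KRP2 (AT3G50630), which restrains lateral root initiation, had 176 counts (23.7 CPM, 20.3 to 27.5), and KRP6 (AT3G19150), known from the male germline, had 175 (23.5 CPM), a single count less. KRP1 (AT2G23430) and KRP7 (AT1G49620) had 84 counts each (11.3 CPM, 9.02 to 14.0), and KRP5 (AT3G24810) was lowest with 57 (7.67 CPM, 5.81 to 9.94). The lowest KRP therefore had more counts than the 3 detected B-type cyclins together, 57 against 30. KRP4 shares 926 bases with AT2G32720 on the opposite strand (112 counts), and KRP3 overlaps no annotated locus.

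Summed KRP counts were 1.18 times the summed D-type cyclin counts (1980 against 1681, interval 1.10 to 1.26). This value rested on the leading D-type cyclin: without that gene the ratio was 8.53, and at median depth it was 8.06. Taken over the counts added between the profile of median depth and the deepest one, the ratio was 0.897. The leading D-type cyclin was listed at 0 at median depth, so all of its 1449 counts fell into that window. That value therefore depended on the listed 0. Since the ratio rested on how 1 gene was counted, no order between the 2 families was called.

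The SIM/SMR inhibitors are small plant-specific proteins that bind CDKs and are known for pushing cells into endoreduplication. SMR1 (AT3G10525), also called LGO and known from the giant cells of sepals, had 4 counts in the shallowest profile, 87 at median depth and 338 in the deepest (45.5 CPM, 40.8 to 50.6). SIM (AT5G04470), known from trichomes, had 2, 52 and 188 (25.3 CPM, 21.8 to 29.2). Both were above 0 in every profile, which was so for 4 of the 56 regulators (7.14%), against 15.3% of all loci. The annotation places AT3G10527 and AT5G04475 on the opposite strand over 375 bases of SMR1 and 338 bases of SIM. The levels of these loci were not analysed here.

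In the retinoblastoma pathway all 6 genes were above 0, against 51.3% of all loci. RBR1 (AT3G12280), the repressor that restrains division in the stem cell niche, had 28 counts (3.77 CPM, 2.50 to 5.45) and was above 0 in 35 profiles. E2FB (AT5G22220), an activator of S phase genes, was the highest of the family with 2 counts in the shallowest profile, 63 at median depth and 208 in the deepest (28.0 CPM, 24.3 to 32.1). E2FC (AT1G47870), which acts mainly as a repressor, had 82 counts (11.0 CPM, 8.78 to 13.7), and E2FA (AT2G36010), the other activator, had 10 (1.35 CPM, 0.645 to 2.47). The dimerization partners DPB (AT5G03415) and DPA (AT5G02470) had 65 counts (8.75 CPM, 6.75 to 11.1) and 43 counts (5.79 CPM, 4.19 to 7.79). The intervals of the 2 activators did not meet, with E2FB the higher.

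The small CKS proteins dock CDK complexes to their substrates. CKS1 (AT2G27960) had 0 counts in the shallowest profile, 28 at median depth and 108 in the deepest (14.5 CPM, 11.9 to 17.6), and its neighbour on the chromosome CKS2 (AT2G27970) had 86 (11.6 CPM, 9.26 to 14.3). The intervals of the pair overlapped. Of the kinases that activate other CDKs, CDKF;1 (AT4G28980), which activates the CDKD kinases, had 2, 23 and 90 counts (12.1 CPM, 9.74 to 14.9) and was above 0 in every profile. CDKD1;2 (AT1G66750) had 42 counts (5.65 CPM, 4.07 to 7.64), and CDKD1;1 (AT1G73690) and CDKD1;3 (AT1G18040) had 15 each (2.02 CPM, 1.13 to 3.33).

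The CCS52 activators of the APC/C had 0 to 2.29 CPM, against 2.02 CPM for the median regulator. CCS52A2 (AT4G11920), known for keeping the QC at low mitotic activity, had 0 counts in the shallowest profile, 3 at median depth and 17 in the deepest (2.29 CPM, 1.33 to 3.66). CCS52A1 (AT4G22910), known from the switch to endoreduplication in the root, had 5 counts (0.673 CPM, 0.218 to 1.57) and was above 0 in only 5 profiles. CCS52B (AT5G13840), which acts in mitosis, was listed at 0. CCS52 counts were 0.733 times those of the B-type cyclins (22 against 30), with an interval of 0.403 to 1.31 that held 1. Genes listed at 0 in both families entered these sums as 0, and the interval does not cover them. WEE1 (AT1G02970) was the lowest gene above 0, with 2 counts in the deepest profile alone (0.269 CPM, 0.0326 to 0.972).

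**Figure D2:**
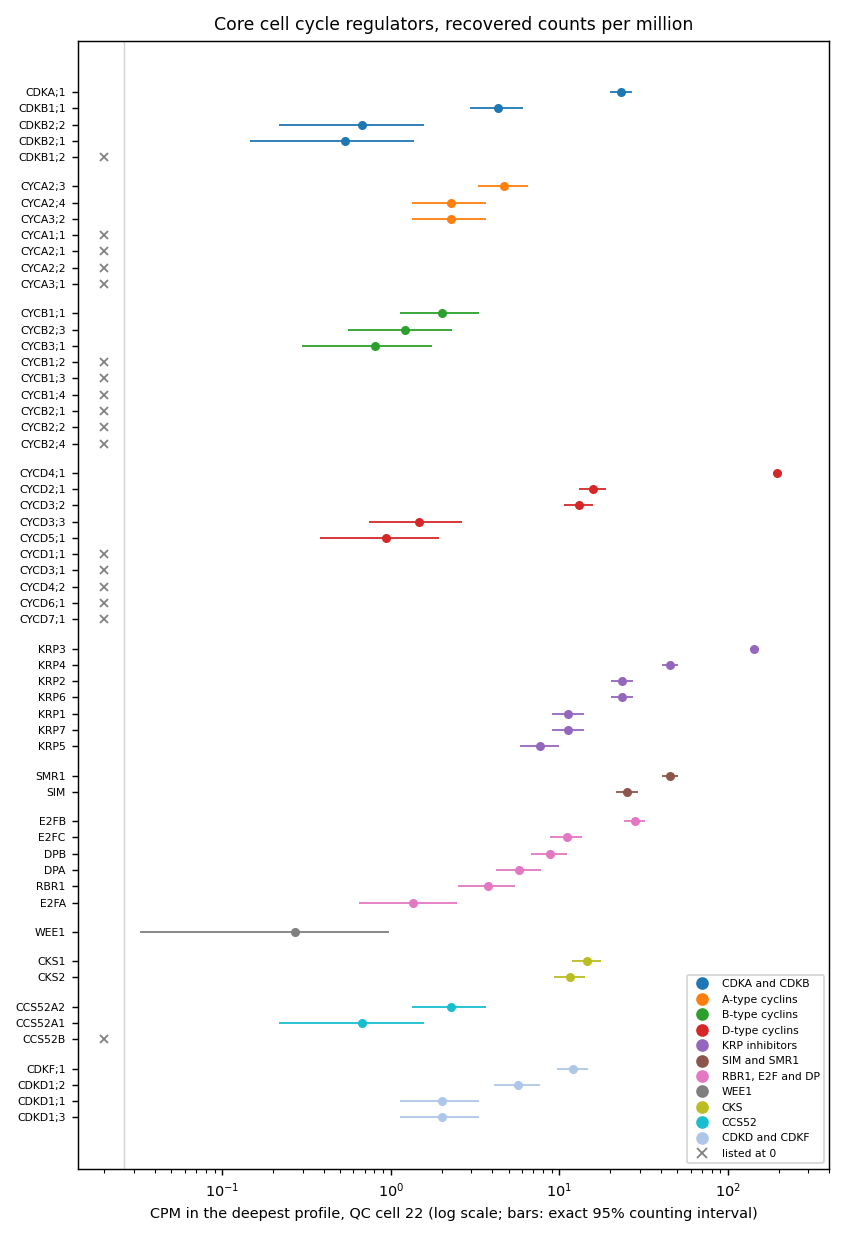
CPM of each of the 56 regulators in the deepest profile on a log axis, grouped by family, with exact 95% counting intervals as bars and crosses at the left for the 17 genes listed at 0. The highest points are CYCD4;1 (195 CPM) and KRP3 (143 CPM), the lowest is WEE1 (0.269 CPM), and 25 of the 56 genes have at most 10 counts.

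Genes above 0 were ordered by count and each was set beside the next. Since the order came from the same counts, neighbours were close by construction, and an interval that held 1 did not show equal levels. Of the 38 neighbouring pairs, the interval of the ratio lay above 1 in 4, with no allowance for the sorting. These were the leading D-type cyclin over KRP3 (ratio 1.36, interval 1.26 to 1.47), KRP3 over KRP4 (3.14, 2.78 to 3.56), SMR1 over E2FB (1.63, 1.36 to 1.94) and CDKA over the second D-type cyclin (1.48, 1.16 to 1.89). Counts of a 3′ end method should depend little on transcript length, and a scale per kilobase of coding sequence was set beside them. On that scale the leading D-type cyclin and KRP3 were close, at 204 and 199 CPM per kb. SMR1 followed at 118, SIM at 66.4, CKS1 at 55.7 and KRP4 at 52.6 CPM per kb, while CDKA had 26.4, E2FB 19.9, RBR1 1.24 and the highest B-type cyclin 1.57 CPM per kb. The 6 highest regulators per kilobase were thus the leading D-type cyclin, 4 inhibitors and CKS1, which ranked 11 by count. This scale raises genes with a short coding sequence, such as CKS1 (261 bases), SIM (381) and SMR1 (384), and lowers long ones such as RBR1 (3039).

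Along depth, 35 regulators first appeared after the shallowest profile, 17 were at 0 throughout and 4 were above 0 throughout. Since no count fell with depth, a gene once above 0 stayed so, and a gene at 0 in the deepest profile was at 0 in all. The median regulator was above 0 in 25 of 39 profiles, against 5 for the median locus. At their first appearance most regulators had 2 to 6 counts. The genes above 0 in all 39 profiles were SIM, SMR1, E2FB and CDKF. In the second shallowest profile CDKA, KRP1, KRP6, DPA, DPB and CKS2 were added, with 2 to 6 counts each. WEE1 came last, in the deepest profile.

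The level of several genes was also followed over the profiles in which each was above 0. KRP4 had 30.5 CPM in its lowest profile above 0, a median of 45.7 and 51.5 in its highest. KRP2 ran between 12.2 and 25.5 CPM with a median of 23.0, and KRP6 between 19.0 and 52.3 with a median of 23.0. SMR1 had 39.6 CPM in its lowest profile, a median of 43.4 and 110 in its highest, and SIM had 6.78, 24.2 and 34.7. CDKA ran between 22.4 and 58.6 CPM with a median of 25.9, and E2FB between 23.7 and 36.8 with a median of 28.8. RBR1 had its lowest level, 3.77 CPM, in the deepest profile, with a median of 4.91 and a highest level of 14.2, and DPA was likewise lowest in the deepest profile at 5.79 CPM, with a median of 9.01. Several of these extremes came from few counts in shallow profiles. In the first profile above 0 of each, RBR1 (14.2 CPM) had 4 counts, KRP6 (52.3) had 6, KRP2 (12.2) had 2 and SIM (34.7) had 2. These spreads are over profiles that share counts and are not errors between cells. They do not show that a level changed with depth.

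**Figure D3:**
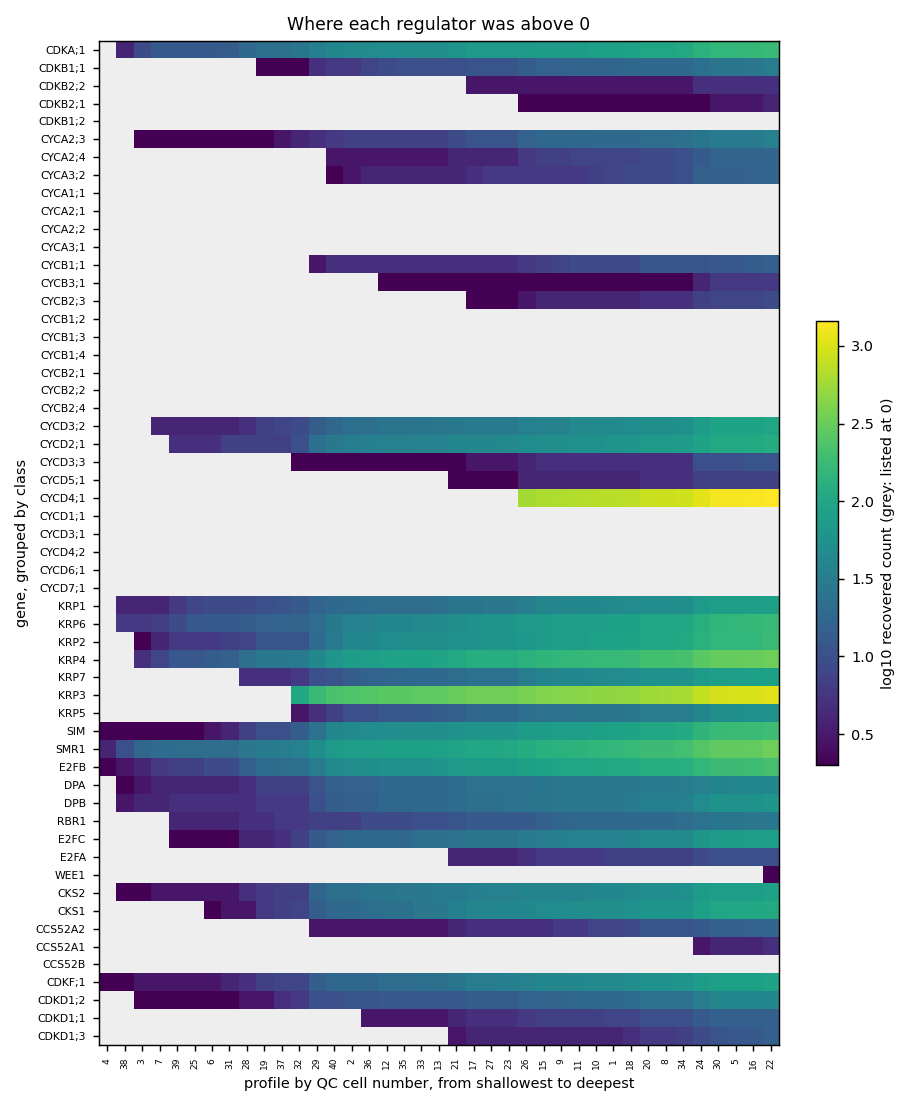
Recovered count (log10 color scale) of each regulator in each of the 39 profiles, ordered from the shallowest to the deepest, with grey for a listed 0. SIM, SMR1, E2FB and CDKF;1 are colored throughout, 17 genes are grey throughout, and CYCD4;1 and KRP3 turn from grey to 591 and 105 counts in 1 step.

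The 2 most abundant regulators appeared abruptly. The leading D-type cyclin was listed at 0 in the 24 shallowest profiles and had 591 counts in QC cell 26, the 25th by depth. At the rate at which it gained counts afterwards, the profile before would have held 507. In its 15 profiles above 0 its level was 194 to 206 CPM, with a median of 199. KRP3 was at 0 in the 11 shallowest profiles and had 105 counts in QC cell 32, where 85.3 would have been held by the profile before. Its level then ran between 130 and 152 CPM, with a median of 136. By contrast SMR1 and E2FB had counts from the shallowest profile on. Of 35 regulators that first appeared after the shallowest profile, 2 (5.71%) would have held at least 30 counts in the profile before, against 233 of 11783 loci (1.98%). The summed level of the regulators changed with these steps, to 529 CPM in QC cell 32 against 382 CPM in the profile before, and to 704 CPM in QC cell 26 against 502 CPM before. The cause of the listed zeros was not tested. The D-type cyclin and KRP sums of the shallower profiles lack these genes.

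**Figure D4:**
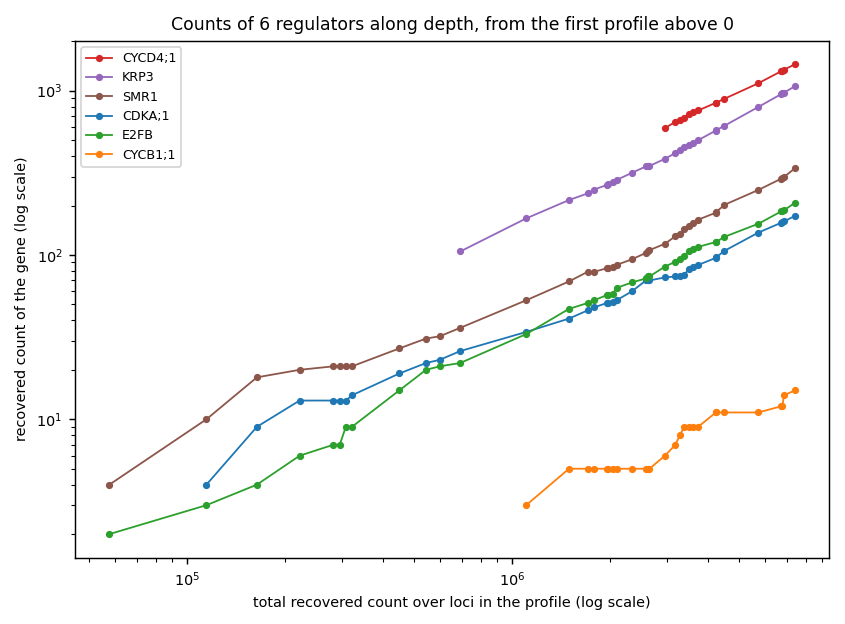
Recovered count of 6 regulators against the total count over loci, both on log axes, drawn from the first profile above 0 of each gene. CYCD4;1 and KRP3 start at 591 and 105 counts, whereas SMR1, E2FB, CDKA;1 and CYCB1;1 start at 4, 2, 4 and 3 counts, and all 6 then climb with depth.

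Once above 0, the median regulator gained counts about as evenly along depth as other loci of like count. The chi-square per degree of freedom over successive differences, which is near 1 for a gene whose share of new counts stays constant, had a median of 1.06 over the 24 regulators with enough counts, against 1.02 over 11686 other loci of like count. It ran from 0.460 for RBR1 to 1.84 for KRP1, and the central 90% of the other loci lay between 0.551 and 1.79. The leading D-type cyclin had 1.76 after its first profile above 0. KRP1 was just above that range, RBR1 just below it and the others within it.

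Genes around the core set were examined as a second list of 36, of which 29 were above 0 (80.6%), against 51.3% of all loci. All 11 APC/C subunits on this list were detected, led by APC11 at 141 CPM, which shares 135 bases with the opposite-strand locus AT3G05880 (3271 counts). The APC/C activators CDC20.1 and CDC20.2, which act in mitosis, were listed at 0, and the APC/C inhibitors OSD1 and UVI4 had 0.673 CPM each. The 4 MYB3R factors on the list, which bind the MSA element, were all above 0, with MYB3R5 highest at 32.7 CPM. Of the atypical E2F factors, which repress without DP, DEL1 led at 6.46 CPM and DEL2 was at 0. SMR4 led the other SMR inhibitors at 11.4 CPM, and SMR2 and SMR7 were at 0. CDKE;1, a kinase of the Mediator complex, led the transcriptional CDKs at 39.0 CPM. Of the mitosis genes, the Aurora kinase AUR1 had 9.69 CPM and the cytokinesis syntaxin KNOLLE 1.48 CPM, while AUR2 and AUR3 were at 0. DEL1, MYB3R5, AUR1 and KNOLLE share 307, 150, 290 and 464 bases with opposite-strand loci, whose part in these levels was not tested.

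Several levels are uncertain because genes overlap. The annotation placed another locus over 19 of the 56 regulators. Among the genes listed at 0, CDKB1;2 shares 281 bases with AT2G38630 (384 counts), CYCD6;1 shares 847 with AT4G03260 (284 counts) and CCS52B shares 190 with AT5G13850 (505 counts), each on the opposite strand, and CYCD3;1 shares 40 with AT4G34150 on the same strand (420 counts). Reads from such shared stretches could have been assigned to either gene or dropped, which was not tested. Of the genes above 0, CKS2 shares 67 bases with AT2G27980 (63 counts) and CCS52A2 shares 111 with AT4G05930, each on the same strand. On the opposite strand, CDKD1;3 shares 118 with AT1G18030 (108 counts) and RBR1 shares 28 with AT3G12270 (15 counts). Whether close paralogs such as the CDKB1, CDKB2 and CKS pairs share reads was not tested, and how reads with several locations were counted in these libraries is not given in the sources used here.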

How the data were processed

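Expression of poly(A) RNA was measured by CEL-Seq in GFP-positive cells, sorted by FACS per the labels. The deposited values were log2 of normalized counts plus 1, as the values show. Per the labels, the authors used Bowtie2 and TAIR10. The counter, strand setting and filters for these libraries are not given in the sources used here. For its pipetted cells the paper describes counting with ngsutils, partial counts for reads with several locations and removal of genes with low coverage. Whether these steps were applied to the CEL-Seq libraries is not stated. Profiles were matched to samples by barcode, and 1 of 40 samples was not analysed here. Counts were recovered by dividing each profile by its step (largest distance from a whole number 0.000844, smallest count above 0 equal to 2) and scaled to CPM over *Arabidopsis* loci, without 91 ERCC spike-in and 2 reporter rows. No molecular identifiers are stated. Ratios of sums have exact conditional binomial intervals. Dispersion used at least 5 differences with an expected count of at least 1. Count recovery and dispersion were tested on simulated data.

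The members and lists were chosen with earlier results of these data known. Every member is named. Values at several depths are given for the highest gene of each family and those above 0 in the shallowest profile. Gene models came from RefSeq TAIR10.1, with 31912 of 32678 loci matched, including all 56 members. Alternatives covered the detection limit, profile, scaling and coding length, and 1 was added after the data were seen. Python 3.11.15, numpy 2.4.6, pandas 2.3.3, scipy 1.17.1 and matplotlib 3.10.9 were used.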

Additional observations from a re-analysis of the deposited data

Results flagged for a closer look

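The ERCC spike-in rows, synthetic RNAs that were left out of the CPM totals, were above 0 in 70 of 91 rows and held 4.97% of all counts in the deepest profile. Counting them in the total moved no regulator's level beyond its interval.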

How the results depend on the processing

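Of 47 alternative values for counts of detected genes, medians and ratios of sums, 30 stayed near the reported value, 16 moved and 1 turned round. A limit of 10 CPM left 17 regulators and 10 related genes, and the shallowest profile 4 and 5. For D-type over B-type cyclins the ratio was 9.43 at median depth, 15.5 without the highest gene of each family and 7.73 without the leading D-type cyclin (chosen after seeing the data). For D-type over A-type cyclins it was 4.71, 6.82 and 3.36 under the same settings, and 32.3 per kb of coding sequence. KRP over D-type cyclins gave 8.06, 3.94 and 8.53, with 1.64 per kb, and turned to 0.897 over the counts added beyond median depth. Those added counts held all counts of CYCD4;1, which was listed at 0 at median depth. CCS52 over B-type cyclins was 0.333 without the highest genes. CDKA;1 over CDKB without its highest gene was not run, since it has 1 gene on top. Single levels left their interval for 16 regulators per kb, 11 at median depth, 9 without 4 ribosomal RNA loci, and 1 each in the second deepest profile and the added counts. The per kb values were scaled to the median coding length of 1.12 kb before they were set against the intervals. No paired analysis was possible because there was 1 group. With 25 regulators at 10 counts or fewer, depth limits the order of the low genes, and a listed 0 cannot be read as absence.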
